A study of Mus musculus with 7 samples.

Results

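The smooth muscle genes examined here were 9 genes of the contractile apparatus, Acta2, Actg2, Myh11, Myl9, Tagln, Cnn1, Smtn, Lmod1 and Des, taken by symbol from a table of 55414 genes. They were listed as genes of the splenic capsule and trabeculae and were compared, library by library, between spleens of mice labelled Fpr2KO (n = 4) and spleens labelled WT, genotype C57BL/6N (n = 3). The series asks what loss of the formyl peptide receptor gene Fpr2 does to the spleen transcriptome. The genetic background of the Fpr2KO mice, how the allele was made, and the age and sex of the mice are unknown here. Samples are numbered in the labels, but nothing states that each came from its own mouse, and the p-values therefore cover only the spread among the sequenced samples, which may be technical.

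A smooth muscle cell shortens when thick filaments of myosin slide along thin filaments of actin, after calcium and calmodulin activate a kinase that phosphorylates the myosin regulatory light chain. Intermediate filaments of desmin tie the apparatus to the cell's attachments. In the spleen such cells lie in the capsule, in the trabeculae that run inwards from it and in the walls of arteries, and some reticular cells also carry smooth muscle actin. Serum response factor and its myocardin-family partners switch on many of these genes through a DNA element called the CArG box.

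All 9 genes were measured in all 7 libraries, and all 9 passed the filter on low counts. Library totals ran from 16424799 to 18692809 counts in Fpr2KO and from 14968605 to 16600334 in WT. Fpr2 had 0 reads in all 4 Fpr2KO libraries, against 537, 479 and 477 reads in the WT libraries. Summed over the 7 libraries, the 9 genes ranged from 331 reads (Lmod1) to 16068 reads (Tagln). Levels below are CPM, the reads of a gene relative to all reads of its library, scaled by TMM, a method that equalises libraries on the bulk of their genes. In whole spleen, fewer cells of a type and less RNA per cell cannot be told apart. Markers of 2 other tissues stood out in some libraries. A list of 16 pancreatic acinar genes summed to 997, 569, 39.7 and 35.9 CPM in Fpr2KO replicates 1 to 4, against 32.4, 49.1 and 24.4 CPM in WT replicates 1 to 3. The 10 genes of an adipocyte list together held 11.6 to 18.8 CPM in Fpr2KO, against 64.3 CPM in WT replicate 3 and 16.7 and 21.5 CPM in the other WT libraries. Their part in the results below was not tested, and results are given without these Fpr2KO libraries where that bears on them.

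None of the 9 genes differed between Fpr2KO and WT spleens in edgeR's quasi-likelihood test over 16089 genes (Benjamini-Hochberg adjusted p between 0.945 and 1.00). In that test 0.0373% of all genes passed. DESeq2 called 0 of the 9 as well, with its lowest adjusted p of 0.203 for Cnn1, where it called 0.379% of all genes. At an unadjusted p under 0.05 there were 2 of the 9, Cnn1 higher and Myl9 lower in Fpr2KO. Over all genes 4.98% had such a p, 1.91% higher and 3.07% lower. The fitted level was lower in Fpr2KO for 5 genes (Acta2, Myh11, Myl9, Smtn and Des) and higher for 4 (Actg2, Tagln, Cnn1 and Lmod1), where 51.4% of all genes were lower. Their median log2 fold change, Fpr2KO over WT, was -0.26, against -0.0049 over all tested genes. It was 0.0059 without both Fpr2KO replicates 1 and 2, and 0.038 without WT replicate 1. Without both Fpr2KO replicates 1 and 2, Cnn1 was at 1.53, Lmod1 at 0.82, Tagln at 0.67, Actg2 at 0.49 and Acta2 at 0.0059. In the same fit Smtn was at -0.097, Myh11 at -0.105, Des at -0.22 and Myl9 at -0.31. The Fpr2KO and WT values overlapped for each of the 9, whereas 5.91% of all genes did not overlap (2.73% higher and 3.18% lower in Fpr2KO).

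**Figure D1:**
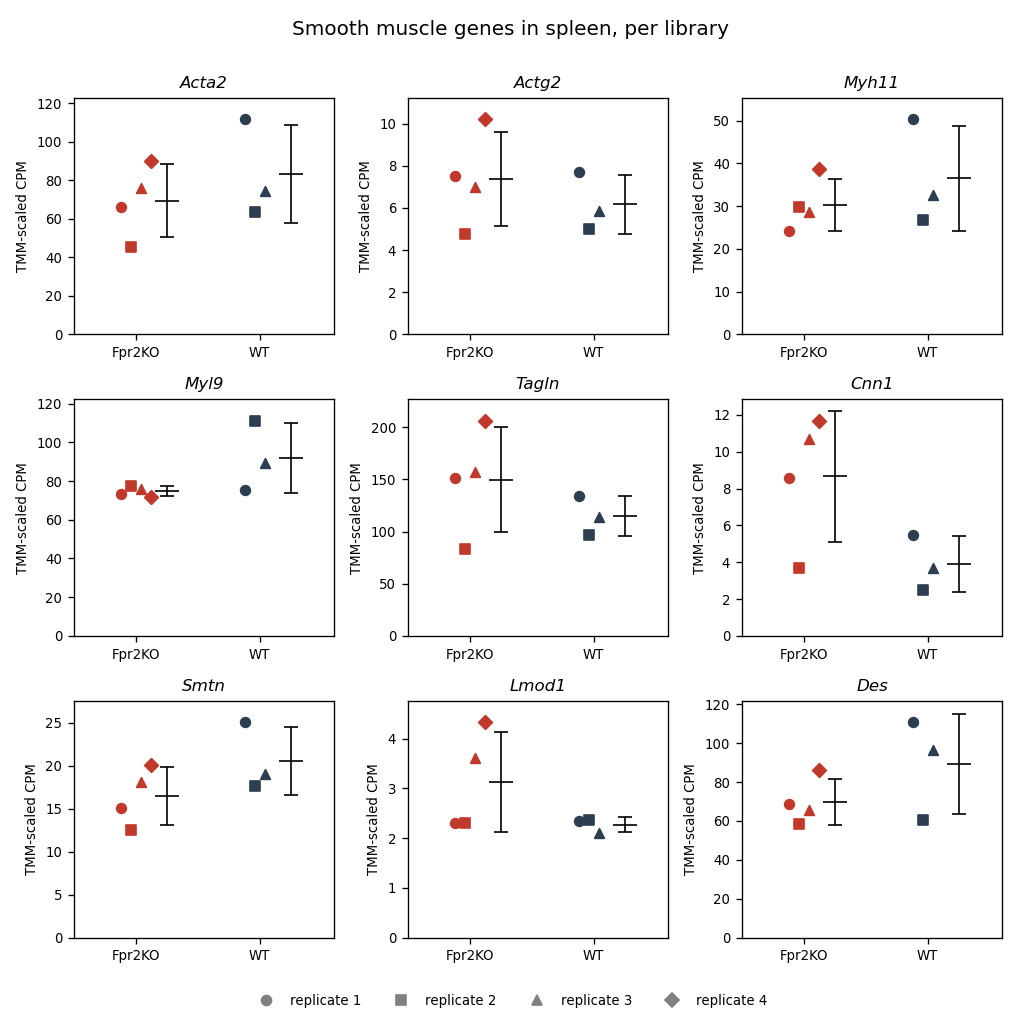
TMM-scaled CPM (vertical axes, from 0) of the 9 smooth muscle genes in the 4 Fpr2KO and 3 WT libraries, with marker shapes for replicate numbers and bars for the mean and SD. Fpr2KO and WT points overlap in each panel. Cnn1 has 3 of its 4 Fpr2KO libraries above all WT libraries, and Myl9 is nearly level in Fpr2KO.

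The 250 bases before the RefSeq start of Acta2, Myl9 and Cnn1 are shown (GRCm38.p6, 5′ to 3′ on the gene's strand), as the usual marker of smooth muscle and the 2 genes with the lowest p. Capitals mark CArG boxes and CArG-like boxes. A CArG-like box is a CArG box with at most 1 base other than A or T in its core. The element reads alike on both strands, and each CArG box also counts as a CArG-like box.
Acta2, chr19:34255374-34255623, minus strand: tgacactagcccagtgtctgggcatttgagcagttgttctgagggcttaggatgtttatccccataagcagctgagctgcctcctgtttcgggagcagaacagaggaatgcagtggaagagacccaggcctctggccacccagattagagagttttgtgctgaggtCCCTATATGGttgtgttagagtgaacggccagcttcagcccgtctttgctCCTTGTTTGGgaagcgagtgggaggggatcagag
Myl9, chr2:156775214-156775463, plus strand: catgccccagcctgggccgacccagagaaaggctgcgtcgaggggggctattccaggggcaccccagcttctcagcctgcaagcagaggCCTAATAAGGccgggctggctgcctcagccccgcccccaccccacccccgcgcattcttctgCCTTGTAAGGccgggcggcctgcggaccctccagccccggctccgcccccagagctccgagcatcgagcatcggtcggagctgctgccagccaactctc
Cnn1, chr9:22099003-22099252, plus strand: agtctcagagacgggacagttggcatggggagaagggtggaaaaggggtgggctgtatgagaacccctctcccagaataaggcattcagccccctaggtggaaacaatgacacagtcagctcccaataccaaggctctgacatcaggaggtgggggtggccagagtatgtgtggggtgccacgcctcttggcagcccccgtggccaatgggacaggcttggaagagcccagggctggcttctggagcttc
Acta2 held 2 CArG-like boxes, beginning 84 and 34 bases before the start, and no CArG box without a deviating base. Myl9 held a CArG box 161 bases and a CArG-like box 99 bases before the start. Cnn1 held neither in this window, and neither did Des, Lmod1 or Smtn. Of 32851 promoter windows in the table, 1.47% held a CArG box and 8.59% a CArG-like box. The table matched 6 of the 9 genes, and Tagln, Myh11 and Actg2 are not described here.

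The thin filament of smooth muscle is built from alpha and gamma smooth muscle actin, encoded by Acta2 and Actg2. Acta2 (ENSMUSG00000035783, chromosome 19, 34241090 to 34255590, minus strand, GRCm38) had 66.0, 45.4, 76.1 and 90.2 CPM in Fpr2KO replicates 1 to 4, against 112, 63.7 and 74.4 CPM in WT replicates 1 to 3. WT replicate 1 was the highest and Fpr2KO replicate 2 the lowest, and the other libraries interleaved. Its log2 fold change was -0.26 (SE 0.28, 95% interval -0.93 to 0.40). Without WT replicate 1 it was 0.0086. Actg2 (ENSMUSG00000059430, chromosome 6, 83512905 to 83536265, minus strand), best known from visceral muscle, had 7.54, 4.78, 6.99 and 10.2 CPM in Fpr2KO and 7.71, 4.98 and 5.85 CPM in WT. Fpr2KO replicate 4 was highest and the groups overlapped, with a log2 fold change of 0.26 (SE 0.26). Actin coding sequences are alike, and reads that fit several genes could have been split or dropped. Of the 50-base windows of the longest protein-coding Acta2 transcript, 0.35% also occurred in transcripts of Actg1 or of actin pseudogenes, and 0% of those of Actg2 occurred in another gene's transcript.

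Thick filaments are represented by Myh11, the smooth muscle myosin heavy chain, and Myl9, a regulatory light chain that is also made by platelets and megakaryocytes. Myh11 (ENSMUSG00000018830, chromosome 16, 14194535 to 14291372, minus strand) had 24.2, 29.8, 28.7 and 38.7 CPM in Fpr2KO against 50.3, 26.7 and 32.5 CPM in WT. WT replicate 1 stood above the rest, and the remaining libraries of both groups interleaved. The log2 fold change of Myh11 was -0.27 (SE 0.24), or 0.038 without WT replicate 1. Myl9 (ENSMUSG00000067818, chromosome 2, 156775420 to 156781658, plus strand) had 73.5, 77.6, 75.9 and 71.9 CPM in Fpr2KO against 75.4, 111 and 89.3 CPM in WT. The 4 Fpr2KO values differed by 1.08-fold from lowest to highest, WT replicate 1 lay among them, and WT replicates 2 and 3 lay above. Its log2 fold change of -0.30 (SE 0.12, 95% interval -0.57 to -0.030) had an unadjusted p of 0.0329 and did not pass (edgeR adjusted p = 0.950). Without WT replicate 2 it was -0.14.

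Proteins that bind the thin filament are encoded by Tagln, Cnn1, Smtn and Lmod1. Tagln (ENSMUSG00000032085, chromosome 9, 45929619 to 45936058, minus strand) encodes transgelin, also called SM22 alpha. It had 151, 83.6, 157 and 206 CPM in Fpr2KO against 134, 96.5 and 114 CPM in WT. Fpr2KO replicate 2 was the lowest library and the other 3 Fpr2KO libraries lay above all WT libraries. The log2 fold change of 0.38 (SE 0.30, 95% interval -0.34 to 1.10) did not pass. Cnn1 (ENSMUSG00000001349, chromosome 9, 22099216 to 22109630, plus strand) encodes calponin 1, which inhibits the actomyosin ATPase. Its levels were 8.59, 3.70, 10.7 and 11.7 CPM in Fpr2KO against 5.50, 2.49 and 3.69 CPM in WT. Fpr2KO replicates 1, 3 and 4 lay above all WT libraries, and Fpr2KO replicate 2 lay below WT replicate 1. Cnn1 averaged 8.66 ± 3.55 CPM in Fpr2KO (SD, n = 4) and 3.89 ± 1.51 CPM in WT (SD, n = 3), a log2 fold change of 1.15 (SE 0.43, 95% interval 0.17 to 2.14). The unadjusted p was 0.0275 and the adjusted p 0.945 with edgeR, so Cnn1 did not pass.

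Smtn (ENSMUSG00000020439, chromosome 11, 3517523 to 3540612, minus strand) encodes smoothelin, known from contractile smooth muscle. It had 15.1, 12.5, 18.1 and 20.1 CPM in Fpr2KO against 25.1, 17.6 and 19.0 CPM in WT. WT replicate 1 was highest, the groups overlapped, and the log2 fold change was -0.32 (SE 0.18). Lmod1 (ENSMUSG00000048096, chromosome 1, 135324807 to 135368065, plus strand) encodes leiomodin 1, which nucleates actin filaments. It had 2.30, 2.31, 3.61 and 4.33 CPM in Fpr2KO against 2.35, 2.36 and 2.09 CPM in WT, a log2 fold change of 0.47 (SE 0.28). Fpr2KO replicates 3 and 4 lay above all WT libraries, and Fpr2KO replicates 1 and 2 lay between WT values. Des (ENSMUSG00000026208, chromosome 1, 75360329 to 75368579, plus strand), for the intermediate filament protein desmin, had 68.7, 58.4, 65.9 and 86.3 CPM in Fpr2KO against 111, 60.5 and 96.7 CPM in WT. WT replicates 1 and 3 lay above all Fpr2KO libraries and WT replicate 2 fell among them, with a log2 fold change of -0.36 (SE 0.21). Neither Smtn, Lmod1 nor Des passed edgeR's test.

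Each gene was also compared on its own by an exact two-sided permutation test over the 35 splits of 7 samples, for which the smallest possible p is 0.0286. The lowest p among the 9 was 0.0857, for Cnn1 and for Myl9, and the others ran from 0.257 (Des, Smtn) to 0.514 (Actg2), without adjustment over the 9 genes.

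**Figure D2:**
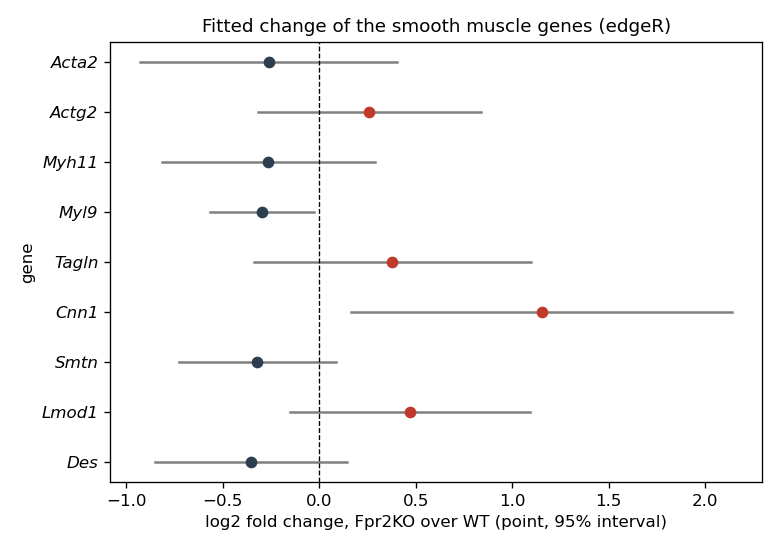
Log2 fold change (horizontal axis, Fpr2KO over WT) of the 9 smooth muscle genes, with points for edgeR's estimate (red above 0, dark blue below) and lines for unadjusted 95% intervals. Only the intervals of Cnn1 (0.17 to 2.14) and Myl9 (-0.57 to -0.030) leave out 0, and neither gene passed after adjustment over all genes.

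Annotated exons of genes on the opposite strand overlap 3 of the 9 genes, and whether the counting used strand is not stated in the sources at hand. The largest overlap was 1241 bases between Tagln and Gm48529, and Tagln also shared 108 exon bases with Pcsk7, which held 4465 reads in all libraries. Gm48529 had between 7.94 CPM in replicate 2 and 22.4 CPM in replicate 4 of Fpr2KO, against 9.65, 9.90 and 12.2 CPM in WT. As for Tagln, its lowest and highest libraries were Fpr2KO replicates 2 and 4. Without strand, reads of Tagln and Gm48529 cannot be told apart. Smtn shared 714 exon bases with Gm11946, which held 32 reads in all libraries, and Des shared 220 with Gm15179, which held 2.

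Per kilobase of annotated exon, Tagln and Myl9 were the most abundant of the 9 genes and Lmod1 the least. The level of Tagln is subject to the opposite-strand overlaps given above. In Fpr2KO spleens (mean ± SD, n = 4) the levels were 75.2 ± 25.3 CPM per kilobase for Tagln and 64.3 ± 2.16 for Myl9, followed by 31.6 ± 8.58 for Acta2 and 18.6 ± 3.15 for Des. The lower genes were Actg2 at 4.74 ± 1.44 CPM per kilobase, Myh11 at 3.99 ± 0.802, Smtn at 3.76 ± 0.767, Cnn1 at 3.17 ± 1.30 and Lmod1 at 0.794 ± 0.255. In WT spleens (n = 3) Myl9 came first at 79.1 ± 15.5 CPM per kilobase and Tagln second at 57.9 ± 9.46. Acta2 followed at 37.9 ± 11.5, Des at 23.8 ± 6.91, Myh11 at 4.80 ± 1.62, Smtn at 4.70 ± 0.903, Actg2 at 3.97 ± 0.895, Cnn1 at 1.42 ± 0.553 and Lmod1 at 0.574 ± 0.0381. Tagln and Myl9 were within their spread of each other in both groups, and so were the neighbours Actg2, Myh11, Smtn and Cnn1 in Fpr2KO. Among WT libraries the spreads of Acta2 and Des touched, as did those of Myh11, Smtn and Actg2, while Cnn1 lay below these.

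The 9 genes varied among libraries of the same genotype, and most had their highest and lowest values in the same ones. The SD of log2 CPM within groups had a median of 0.37 over the 9 genes, against 0.19 over all tested genes. It was largest for Cnn1 (0.67) and smallest for Myl9 (0.18). Fpr2KO replicate 4 was the highest of the Fpr2KO libraries for 8 of the 9 genes (all but Myl9), and Fpr2KO replicate 2 was the lowest for 6. Among WT libraries, replicate 1 was highest for 7 genes and replicate 2 lowest for 7. Summed over the 9 genes, Fpr2KO replicates 1 to 4 held 417, 318, 443 and 540 CPM, against 523, 386 and 438 CPM in WT replicates 1 to 3. Both groups thus held libraries of high and of low smooth muscle gene level. Over all 7 libraries, the maximum lay in WT replicate 1 for Acta2, Myh11, Des and Smtn and in Fpr2KO replicate 4 for Tagln, Cnn1, Actg2 and Lmod1.

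**Figure D3:**
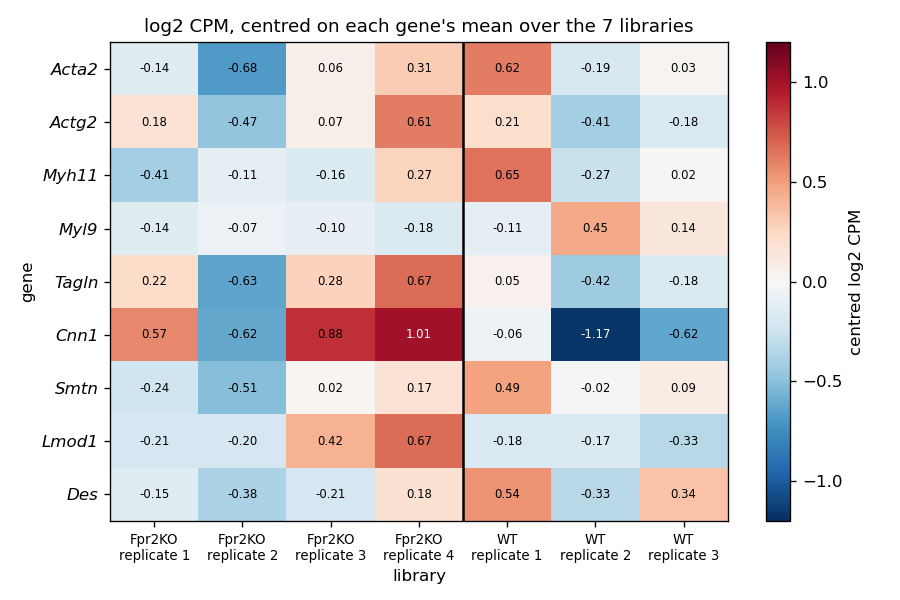
Log2 CPM of the 9 smooth muscle genes (rows) in the 7 libraries (columns, Fpr2KO left of the line and WT right), centred on each gene's mean, with red above and blue below that mean. Fpr2KO replicate 2 is below the mean for all 9 genes and Fpr2KO replicate 4 above it for 8, while WT replicate 1 is above it for 6 and WT replicate 2 below it for 8.

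Actg2 followed the other genes most closely. The root mean square difference between its centred log2 CPM and the mean of the other 8 genes was 0.15 over the 7 libraries. It was 0.22 for Acta2, 0.22 for Tagln, 0.23 for Smtn, 0.29 for Des, 0.29 for Lmod1 and 0.30 for Myh11. Myl9 (0.47) and Cnn1 (0.67) departed most. By the same measure against the mean of all 9 genes, the 10 most similar protein-coding genes outside the list were Itga5 (0.079), Galnt3 (0.081), Fbln2 (0.088), Stab1 (0.092), Pstpip2 (0.11), Plin2 (0.12), Anxa2 (0.12), Itga3 (0.12), Naf1 (0.13) and Adcy4 (0.13). The median over the 12677 candidates was 0.31, close to the values of Des, Lmod1 and Myh11, which were taken against the other 8 genes. A gene that hardly varies can also have a small difference by this measure. It therefore cannot decide whether such likeness is particular to the 9 genes. Itga5 encodes a chain of the fibronectin receptor, Fbln2 the matrix protein fibulin 2, and Stab1 a scavenger receptor of sinusoidal endothelium and macrophages. None of the 10 passed edgeR's test (adjusted p = 1.00 each).

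Myl9 ranked the libraries differently from the other genes, with WT replicate 2 highest and Fpr2KO replicate 4 lowest. A list of 10 megakaryocyte and platelet markers, chosen after the values were seen, summed to 643, 822, 507 and 439 CPM in Fpr2KO and 431, 821 and 894 CPM in WT. Those markers were thus lowest in Fpr2KO replicate 4 and WT replicate 1, the libraries with the most Tagln and Acta2. The root mean square difference of Myl9 from the marker mean was 0.29 on the log2 scale, against 0.47 from the other 8 smooth muscle genes. For the other 8 genes the difference from the platelet markers ran from 0.61 to 1.12. Myl9 varied little, with a root mean square deviation of 0.21 about its own mean, so it was closer to no variation than to either set. In the platelet list 0 of 10 genes passed by edgeR, also 0 at an unadjusted p under 0.05, while 10 of 10 were lower in the fit, and the median log2 fold change was -0.27. The part of platelets in the Myl9 level was not tested.

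**Figure D4:**
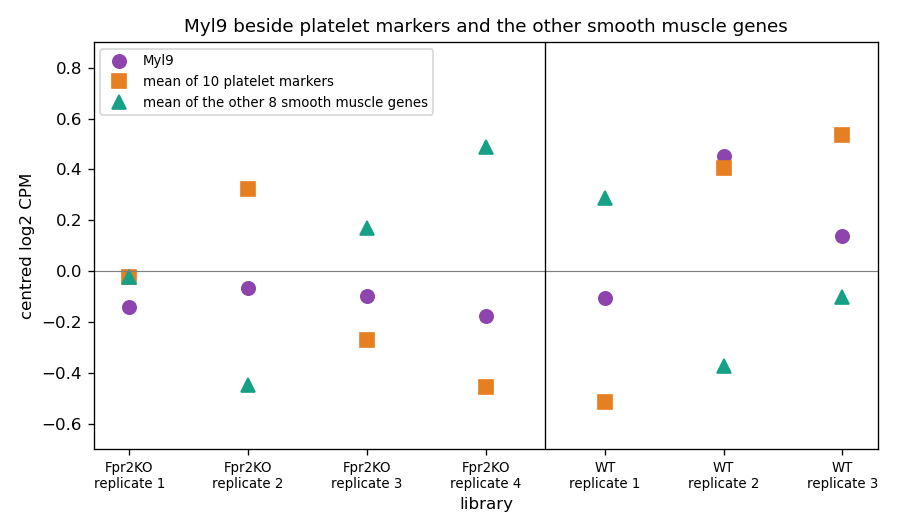
Centred log2 CPM (vertical axis) of Myl9, of the mean of 10 platelet markers and of the mean of the other 8 smooth muscle genes in each library, Fpr2KO left of the line and WT right. In WT replicate 2 Myl9 (0.45) lies beside the platelet markers (0.41) and away from the other smooth muscle genes (-0.37). In WT replicate 3 Myl9 (0.14) lies nearer the other smooth muscle genes (-0.10) than the platelet markers (0.53). In Fpr2KO replicate 2 and WT replicate 1 it lies about midway between the sets.

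Most of the 9 genes shared their highest and lowest libraries within a group. Their proportions to each other were therefore also compared, a description chosen after the values were seen. A ratio of genes within a library does not depend on the scaling. Tagln per Acta2 was 2.29, 1.84, 2.07 and 2.29 in Fpr2KO, against 1.20, 1.52 and 1.54 in WT, so every Fpr2KO library was above every WT library. Cnn1 per Acta2 was 0.130, 0.0816, 0.140 and 0.129 in Fpr2KO, against 0.0492, 0.0391 and 0.0496 in WT. These groups also lay apart, with means of 0.120 ± 0.0263 in Fpr2KO (SD, n = 4) and 0.0460 ± 0.00595 in WT (SD, n = 3). Actg2 per Acta2 was 0.114, 0.105, 0.0919 and 0.113 in Fpr2KO, against 0.0689, 0.0782 and 0.0786 in WT, again without overlap. The ratios of Myh11, Myl9, Smtn, Lmod1 and Des to Acta2 overlapped between the groups.

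Over all tested genes, 1.73% had a ratio to Acta2 that was higher in every Fpr2KO library than in every WT library, and 2.03% did not overlap in either direction. With Smtn in place of Acta2, the ratios of Tagln, Cnn1, Actg2 and Lmod1 were higher in Fpr2KO without overlap, where 7.15% of all tested genes were. Cnn1 was also higher without overlap relative to Tagln (0.087% of all tested genes were), Myh11 (1.9%), Des (3.05%) and Actg2 (0.149%). Relative to Myl9 and to Lmod1, Cnn1 overlapped between the groups. Of the 36 pairs among the 9 genes, 11 had a ratio without overlap. These ratios share genes and are not independent. In Fpr2KO replicates 3 and 4 the acinar sum was within the WT range. Their ratios were 2.07 and 2.29 for Tagln to Acta2 and 0.140 and 0.129 for Cnn1 to Acta2. That these lay above all WT libraries follows from the lack of overlap in the whole group and adds no separate check. A fit over all genes with the Acta2 reads as the library size gave log2 fold changes relative to Acta2 of 1.39 (SE 0.45) for Cnn1, 0.58 (SE 0.37) for Tagln and 0.50 (SE 0.43) for Actg2, against a median of 0.26 over all genes. None passed in that edgeR fit (adjusted p = 0.875 for each), where 0.0684% of all genes did. The unadjusted p was 0.00197 for Cnn1, and 1.52% of all genes had one under 0.05.

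**Figure D5:**
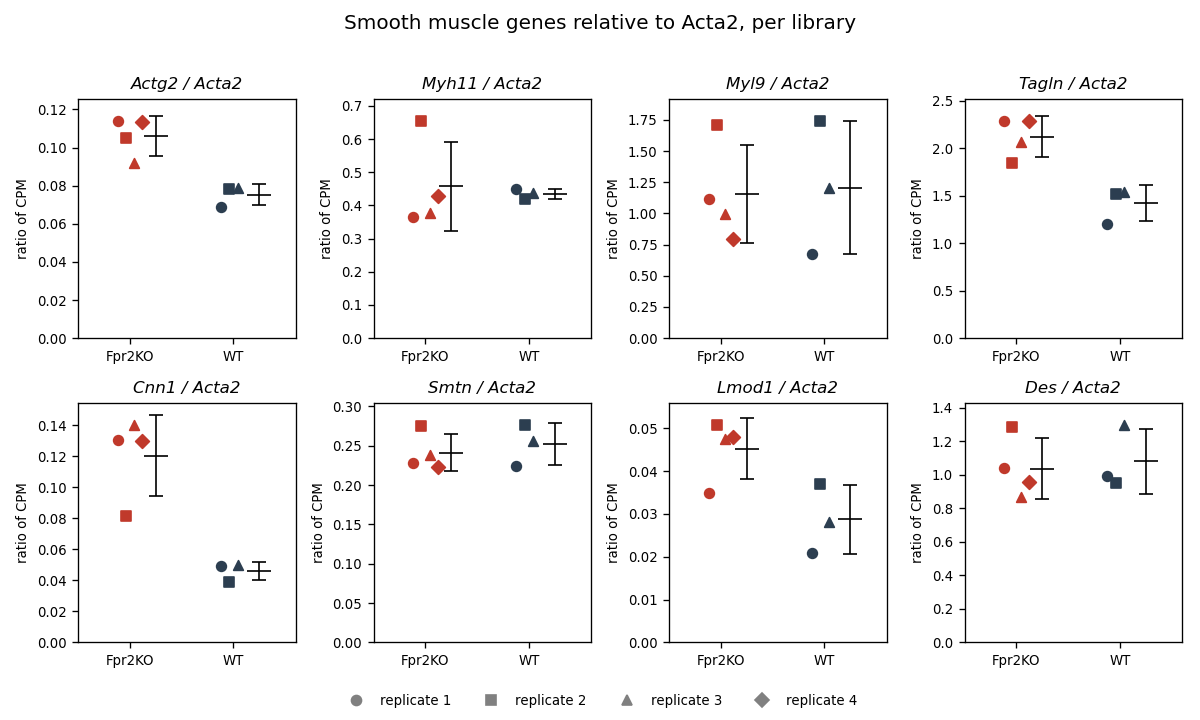
Ratio of the CPM of each of the other 8 smooth muscle genes to that of Acta2 (vertical axes, from 0) in the Fpr2KO and WT libraries, with marker shapes for replicate numbers and bars for the mean and SD. Fpr2KO lies above WT without overlap for Tagln, Cnn1 and Actg2, and the groups overlap for the other 5.

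Further contractile and cytoskeletal genes of smooth muscle did not pass either. Of 16 such genes 15 were tested, 10 lower and 5 higher in the fit, and 0 passed edgeR's test, at a median log2 fold change of -0.062. Synpo2, for the actin-bundling protein synaptopodin 2, had 22.8, 36.1, 24.8 and 29.3 CPM in Fpr2KO against 53.0, 36.8 and 41.2 CPM in WT. All Fpr2KO libraries were below all WT libraries, narrowly in the case of replicate 2 of both groups, and the log2 fold change was -0.63 (SE 0.18, unadjusted p = 0.00597, edgeR adjusted p = 0.727). Pdlim7 had a log2 fold change of -0.29 (unadjusted p = 0.0465) and the intermediate filament gene Synm one of 0.19. Synpo2 and Pdlim7 were the 2 of the 15 tested genes of this list at an unadjusted p under 0.05, both lower. Over all tested genes 3.07% had such a p and were lower, and 3.18% were lower without overlap, as Synpo2 was.

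Among 22 regulators of contraction, 21 were tested and 0 passed, with 0 at an unadjusted p under 0.05 and a median log2 fold change of 0.084. Adra1d, an alpha-1 adrenergic receptor gene of the kind through which sympathetic nerves contract the capsule, had 2.77, 2.68, 2.67 and 3.28 CPM in Fpr2KO against 2.28, 1.90 and 2.40 CPM in WT. Ppp1r12b, for a targeting subunit of myosin phosphatase, had 39.1, 39.9, 40.0 and 41.0 CPM in Fpr2KO against 37.4, 36.6 and 35.6 CPM in WT. Neither gene's groups overlapped, and neither passed (log2 fold changes 0.38, SE 0.21, and 0.13, SE 0.077). With Rgs2, named after its values were seen, 3 of the 21 were higher in Fpr2KO without overlap, against 2.73% of all tested genes. Rgs4 was at -0.74 on the log2 scale (SE 0.40) and the thromboxane receptor gene Tbxa2r at 0.20 (SE 0.13). Of 12 genes of the SRF and myocardin family and their partners 11 were tested, 0 passed, and the median was -0.019. Srf averaged 51.6 ± 3.78 CPM in Fpr2KO (SD, n = 4) and 58.1 ± 5.04 in WT (SD, n = 3), with a log2 fold change of -0.17, while Fhl2 was at -0.35, Fhl1 at -0.12 and Tead1 at 0.21. Myocd lay at or below 0.161 CPM in Fpr2KO and 0.268 CPM in WT and was not tested.

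A list of 16 cytoplasmic actin, non-muscle myosin and related genes holds counterparts that other cells of the spleen share. All 16 were tested, 13 were lower in the fit, 0 passed, and the median was -0.065. Actg1, for cytoplasmic gamma actin, had 915, 971, 985 and 1013 CPM in Fpr2KO against 1073, 1076 and 1281 CPM in WT, apart but without passing (log2 fold change -0.24, unadjusted p = 0.0249, edgeR adjusted p = 0.943). Vcl, for vinculin, was at -0.31 (unadjusted p = 0.0133), Flna at -0.16 and Myl12a at -0.11.

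Markers of other cells around smooth muscle did not pass in edgeR's test in any list. Mural cell genes summed to 143 to 201 CPM in Fpr2KO and 138 to 190 CPM in WT, with 9 of 11 tested and a median log2 fold change of 0.018 (Esam -0.22, Mcam -0.42, Notch3 0.40, Kcnj8 -0.20). Mesothelial genes, which mark the outer lining of the capsule, summed to 24.3, 36.0, 31.3 and 69.5 CPM in Fpr2KO against 37.1, 35.9 and 44.2 CPM in WT. Their highest value fell in Fpr2KO replicate 4, which also had the highest Fpr2KO levels of 8 of the 9 smooth muscle genes. The next highest Fpr2KO sum, 36.0 CPM, fell in replicate 2, which had the lowest Fpr2KO levels of 6 of the 9. Among WT libraries the mesothelial sum was highest in replicate 3, whereas 7 of the 9 smooth muscle genes were highest in replicate 1. The mesothelial median was 0.15, with 9 of 10 genes tested (Msln 0.74, Rspo1 -0.20, Upk1b 0.34, Gpm6a -0.23). Fibroblastic stromal genes had a median of 0.12 over 15 genes, and only Tcf21, a transcription factor gene of splenic mesenchyme, had an unadjusted p under 0.05 (log2 fold change 0.63, unadjusted p = 0.0397, edgeR adjusted p = 0.986). Eln was at 0.37, Pi16 at -0.64 and Col1a1 at 0.46. Endothelial genes had a median of -0.055 over 10 genes (Cldn5 0.26, Vwf -0.29, Pecam1 -0.13, Tek 0.21). The part of these lists in the smooth muscle levels was not tested.

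Striated muscle markers were low. The 12 genes summed to 20.7 to 24.8 CPM in Fpr2KO and 20.2 to 23.9 CPM in WT, Myh6 and Mb had no read in any library, and skeletal actin, Acta1, reached at most 0.294 CPM in Fpr2KO and 0.201 CPM in WT. The 4 tested members Tnnt3 (-0.28), Ttn (0.16), Mylpf (-0.12) and Tnni2 (0.046) did not pass. Of 10 nerve and glia markers Th and Dbh had no read in any library, and 6 were tested with a median of -0.20 (Uchl1 -0.35, Ano1 -0.21). The lists of acinar genes (4 of 16 tested, Zg16 2.40, Prss2 6.06, Ctrl 4.43, Cela1 1.21 in log2 fold change) and adipocyte genes (3 of 10 tested, Fabp4 -0.50, Cfd -2.65, Car3 -2.32) had 0 genes passing. Each of the 4 tested acinar genes was highest in Fpr2KO replicates 1 and 2. Their list summed to 997 and 569 CPM there and to at most 49.1 CPM in any other library. Cfd reached at most 1.45 CPM in Fpr2KO, against 13.3 CPM in WT replicate 3 and at most 1.41 CPM in the other WT libraries. Car3 reached at most 2.15 CPM in Fpr2KO, against 18.0 CPM in WT replicate 3 and at most 1.81 CPM in the other WT libraries. Both were high in WT replicate 3 alone. Fabp4 had an unadjusted p of 0.0103, with every Fpr2KO library below every WT library. In the list of 8 leukocyte markers 0 passed, 6 were lower and 2 higher in the fit, and the median was -0.059. Itgam had the smallest p (log2 fold change -0.54, unadjusted p = 0.0232), with Lyz2 at -0.28 and Cd79a at -0.052.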

How the data were processed

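Polyadenylated RNA of 7 mouse spleen samples was sequenced. Extraction used a Qiagen RNeasy Plus kit and library preparation NEBNext Ultra II reagents, per the labels' protocols. The authors deposited raw counts of reads for each Ensembl gene. FastQC 0.10.1, HTSeq 0.10.0 and build mm10 (GRCm38) are named, per the submitters' processing notes. For the aligner, annotation release and strand setting, the entry is: not given in the sources used here. All rows named a gene, and 0 columns were left unmapped.

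GENCODE M21 (GRCm38) supplied symbols and positions and matched 52133 of 55414 IDs. Where 2 IDs carried a symbol (Myl12b), the one with more counts was used. The comparison of Fpr2KO with WT used edgeR 4.0.16 under R 4.3.3 (quasi-likelihood F test, robust, TMM, filterByExpr), with Benjamini-Hochberg adjustment over all tested genes and a threshold of 0.05. Intervals use the fit's SE at 95%. Log2 CPM used a prior count of 2. A floor of 3 counts corresponds to 0.156 to 0.178 CPM in Fpr2KO and 0.185 to 0.201 CPM in WT; it covers counting error only. The fit was first tested on simulated data. Alternatives included DESeq2 1.42.0 and limma 3.58.1. Replicates of a group differed by more than counting noise.

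The 9 genes and the lists were chosen with earlier results of these data known. From each list up to 4 tested genes with the smallest p are named, except for some that are not reported here; the other list genes named were mentioned after their values were seen. Similar genes were the 10 with the smallest root mean square difference among protein-coding genes averaging 1 CPM or more, without immunoglobulin or T cell receptor segments and unnamed gene models.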

Additional observations from a re-analysis of the deposited data

Results flagged for a closer look

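The 22 regulators of contraction summed to 1749 CPM in Fpr2KO replicate 1, a value that stood apart from 1588, 1594 and 1603 CPM in the other 3 Fpr2KO libraries by the gap test for 4 samples. WT libraries held 1704, 1667 and 1474 CPM. Fpr2KO replicate 1 also had the largest sum of acinar genes, 997 CPM, and the part of that in the regulator sum was not tested. The gap test was applied to 26 values, and it marks about 1 in 20 groups by itself.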

How the results depend on the processing

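Under all 17 alternatives 0 of the 9 smooth muscle genes were called. Tagln, Des, Cnn1, Actg2, Myl9, Lmod1 and Smtn kept their direction in all 17. The log2 fold change of Acta2 reversed without WT replicate 1 (0.0086) and without both Fpr2KO replicates 1 and 2 (0.0059), and that of Myh11 without WT replicate 1 (0.038); the cause was not tested. With a single library left out, Acta2 ran from -0.42 to 0.0086 and Myh11 from -0.45 to 0.038. In the same fits Cnn1 ran from 0.92 to 1.48 and Myl9 from -0.42 to -0.14. The median of the 9 genes ran from -0.29 to 0.038 with a single library left out, was 0.0059 without both Fpr2KO replicates 1 and 2 and -0.065 with limma-voom. The lowest adjusted p of any of the 9 genes under any alternative was 0.203 (Cnn1, DESeq2). Over all genes, edgeR called 6, DESeq2 60, edgeR with no low count filter 21, and between 5 and 15 with a single library left out (10 without WT replicate 1, 15 without WT replicate 3). With the replicate number as a block edgeR called 2 genes and 0 of the 9. For samples with the same number, correlations of deviations were 0.078, -0.43 and -0.073. Those for samples with different numbers ran from -0.44 to 0.44. Each rests on a single library per group, so they cannot decide whether the numbers pair the samples. RLE, upper-quartile and other library sizes moved the median log2 fold change of all genes by at most 0.017. The fewest reads were those of Lmod1, with 34 to 83 per library.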
